A study of Homo sapiens with 32 samples.

Results

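The m6A site lists of 4 conditions held 928 distinct sites on the mitochondrial genome (chrM), out of 7195 distinct sites in all. Members were all chrM entries of the 4 lists, taken as distinct by first base, last base and strand, and each was recorded as present or absent in each list. N6-methyladenosine (m6A) is a methylated adenine of RNA. The lists come from m6A-eCLIP, in which RNA is crosslinked to an antibody against m6A and the crosslinked positions are read by sequencing. All cells were HEK293T, an established human embryonic kidney line. WT cells carried wild-type eIF3d, a cap-binding subunit of the translation initiation factor eIF3, and DD cells carried eIF3d with the changes S528D and S529D, which put an acidic residue in place of each serine. Cells of each genotype received 600 nM thapsigargin (Tg), an inhibitor of the calcium pump of the endoplasmic reticulum, for 16 h, or its solvent DMSO. RNA-Seq libraries of the same 4 conditions (2 each) were made from polyadenylated RNA. Subunit-Seq, on cells with HA-eIF3d-TEV, sequenced RNA recovered with the immunoprecipitated cap-binding domain of eIF3d (IP) and its input, again with Tg or DMSO and 2 libraries each. The labels do not say whether a genotype is 1 clone, nor that replicates came from separate cultures, so p-values measure only the spread between these samples, which may be technical.

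Mitochondrial DNA is transcribed from both strands into long RNAs, from which tRNAs are cut out so that the rRNAs and mRNAs between them are released. The small ribosomal subunit of mitochondria holds 12S rRNA (MT-RNR1), the large one holds 16S rRNA (MT-RNR2), and the mRNAs code for subunits of the respiratory chain and of ATP synthase. Both rRNAs carry base and ribose modifications placed by nuclear-encoded enzymes, among them a pair of dimethylated adenines near the 3′ end of 12S rRNA, made by TFB1M. The nuclear m6A writer, METTL3 with METTL14, acts on RNA polymerase II transcripts in the nucleus.

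Each list is 1 set of positions per condition, with no score, read depth or replicate. No difference between lists could therefore be tested, and the depth behind a site is unknown. The chrM sites numbered 599 of 3000 in WT DMSO (19.97%, 95% Wilson interval 18.6 to 21.4), 490 of 1572 in WT Tg (31.2%, 28.9 to 33.5), 513 of 1796 in DD DMSO (28.6%, 26.5 to 30.7) and 694 of 5050 in DD Tg (13.7%, 12.8 to 14.7). The intervals cover counting error only. The chrM share was thus lowest in the longest list and highest in the shortest.

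The 2 rRNA genes held 526 of the 928 sites (56.7%), 197 in MT-RNR1 (ENSG00000211459.2, chrM:648-1601, GRCh38) and 329 in MT-RNR2 (ENSG00000210082.2, chrM:1671-3229). The other 402 sites lay in mRNA genes (376), in tRNA genes (21) or in no gene (5). The number of rRNA sites was nearly the same in every list, at 457 with DMSO and 435 with Tg in WT cells and 442 with DMSO and 452 with Tg in DD cells, a ratio of 1.05 between most and fewest. Outside rRNA the lists held 142, 55, 71 and 242 sites in that order, a ratio of 4.40, and on the nuclear chromosomes 2401, 1082, 1283 and 4356, a ratio of 4.03. Counts outside rRNA therefore had the same order over the lists as nuclear counts, at 5.91, 5.08, 5.53 and 5.56 per 100 nuclear sites, whereas rRNA sites ran from 10.4 per 100 nuclear sites in DD Tg to 40.2 in WT Tg. In WT cells the Tg list had 0.387 times as many sites outside rRNA as the DMSO list, and in DD cells 3.41 times as many. For rRNA the same ratios were 0.952 and 1.02.

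**Figure D1:**
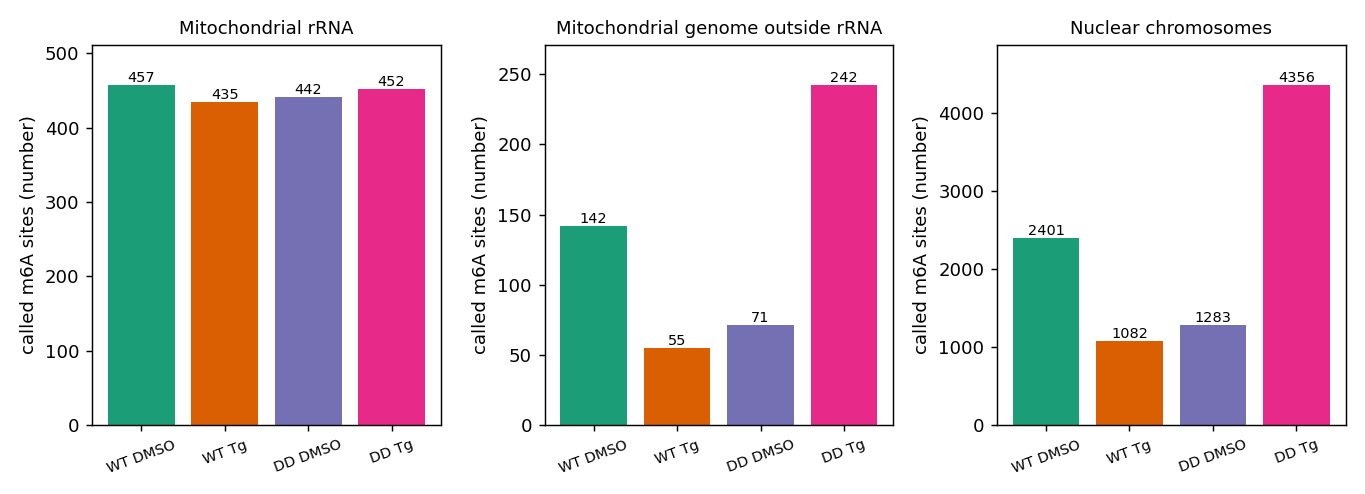
Bars give the number of called sites in each list (y axis, starting at 0), in separate panels for mitochondrial rRNA, the rest of the mitochondrial genome and the nuclear chromosomes. The rRNA bars stay between 435 and 457, while those outside rRNA run from 55 to 242 and the nuclear bars from 1082 to 4356.

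Presence over the lists separated rRNA from the rest. Of the rRNA sites, 362 of 526 were in all 4 lists (68.8%, Wilson interval 64.7 to 72.6), against 11 of 402 outside rRNA (2.74%, 1.53 to 4.83) and 384 of 6267 nuclear sites (6.13%, 5.56 to 6.75). The opposite held for sites found in 1 list, with 63 in rRNA (11.98%), 332 outside rRNA (82.6%) and 4583 on nuclear chromosomes (73.1%). The rRNAs also differed from each other: 274 of 329 sites of 16S rRNA were in all lists (83.3%, 78.9 to 86.9), and 88 of 197 of 12S rRNA (44.7%, 37.9 to 51.6). Neighbouring sites are not independent, so these intervals are too narrow as measures of error. Between any pair of lists, 92.0 to 99.3% of either list's 16S sites were shared, 71.1 to 90.3% of its 12S sites and 10.7 to 47.3% of its sites outside rRNA. Of the rRNA sites in 1 list, 30 were in WT Tg, 17 in DD DMSO, 9 in WT DMSO and 7 in DD Tg. A further 39 rRNA sites were in every list but WT Tg, 20 in 12S and 19 in 16S rRNA. Outside rRNA the single-list sites were in DD Tg (181), WT DMSO (93), DD DMSO (34) and WT Tg (24).

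**Figure D2:**
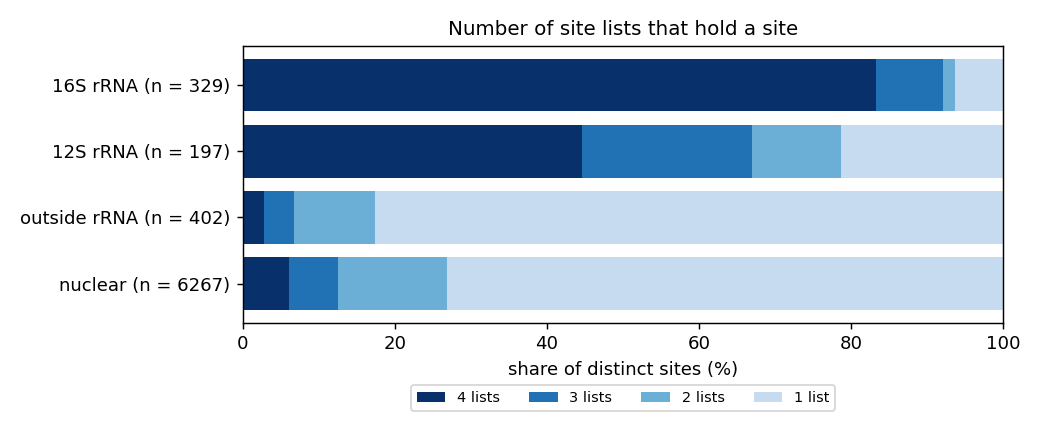
Horizontal bars give the share of distinct sites (x axis, %) present in 1, 2, 3 or 4 lists, for each class of site (y axis). Sites of 16S rRNA were mostly in 4 lists (83.3%), sites outside rRNA mostly in 1 (82.6%).

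Part of the difference lay in where a site was drawn to end. Sites spanned 1 to 7 bases, and 195 of 526 rRNA sites were longer than 1 base (37.1%), against 68 outside rRNA (16.9%) and 348 nuclear sites (5.55%). In 12S rRNA 61 sites shared a base with another listed site (31.0%), in 16S 36 (10.9%) and outside rRNA 51 (12.7%). Counted by base, 162 of the 252 bases of 12S rRNA in any list were in all (64.3%), as were 461 of 498 in 16S rRNA (92.6%) and 14 of 454 outside rRNA (3.08%). The DD Tg list covered all 498 of the 16S bases, and the other lists 475 to 493 of them. With sites that share a base merged, an alternative chosen after seeing the data, 67.7% of 12S sites, 93.5% of 16S sites and 3.21% of sites outside rRNA were in all lists. With sites within 5 bases merged, 33 of 38 of 12S rRNA (86.8%), 50 of 50 of 16S rRNA (100%) and 16 of 269 outside rRNA (5.95%) were in all lists. The order of the classes was the same by each of these counts, but the distance between the rRNAs shrank with merging. Between rRNA and the rest it remained when counted by base and with sites sharing a base merged. Merging within 5 bases cannot bear on that contrast, since the median step between covered stretches of rRNA was 3 bases. Dense rRNA sites thus fused into few long blocks, which a list can reach without calling the same positions.

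Sites were dense along both rRNAs. They covered 26.4% of the bases of 12S and 31.9% of those of 16S rRNA, and the median step from one covered stretch to the next was 3 bases in each. All 526 lay on the strand of the rRNA genes. The density was broken once in each molecule by a long stretch with no site in any list. In 12S rRNA it was chrM:1070-1219, 150 bases from base 423 to base 572 of the molecule, where the next longest empty stretch was 20 bases. In 16S rRNA it was chrM:2583-2747, 165 bases from base 913 to base 1077, with a next longest of 14. The sites on either side of the 16S stretch, chrM:2581-2582 and chrM:2748-2749, were in all lists. The sequence of chrM was not used here, so the base under each site and the sequence around it are not given. Sequence was at hand only for promoter windows, which held 390 of the 6267 nuclear sites, so these need not represent the lists. All 370 single-base sites among them were adenines, and 24 of these (6.49%) lay in the methylation motif DRACH. In it, D is any base but C, R is A or G, and H is any base but G. The share of all adenines of these windows that lie in the motif was not counted, so the 6.49% has no background beside it. Of the 20 longer sites, 9 were adenines throughout. Neither the base nor the motif was tested for chrM sites, which are therefore called sites only.

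Agreement between lists also changed along the molecules. From base 801 of 12S rRNA to its 3′ end, 2 of 31 sites were in all lists (6.45%) and 15 were in 1 list, although each list held 13 to 16 sites there. In the rest of 12S rRNA 86 of 166 were in all lists (51.8%). Sites with different ends count as different here, and agreement by base was not counted along the molecules. In 16S rRNA every site between bases 501 and 700, and between 801 and 1100, was in all lists. The share was lower in the last windows, at 47.8% between bases 1401 and 1500 and 33.3% from base 1501 to the end.

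**Figure D3:**
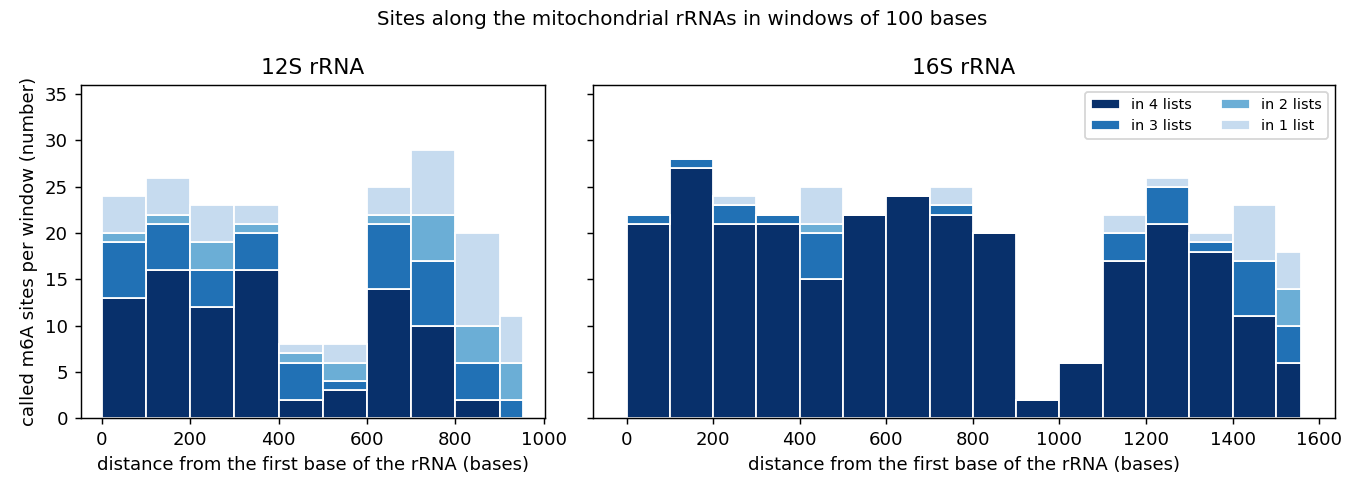
Stacked bars give the number of sites per window of 100 bases (y axis) along 12S and 16S rRNA (x axis, bases from the first base of each rRNA), split by the number of lists holding the site. The bars drop at the empty stretches of 150 and 165 bases, and the share of sites in all 4 lists shrinks at the 3′ end of 12S rRNA.

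Positions of rRNA modifications known from other work were looked up as a description. The first of the dimethylated adenines of 12S rRNA, chrM:1583, was the first base of a site in every list, but the sites ended differently, at 1583 in WT Tg and DD DMSO, at 1584 in WT DMSO and at 1585 in DD Tg. The neighbouring dimethylated adenine, chrM:1584, was covered in 2 lists. The 1-methyladenine of 16S rRNA, chrM:2617, was not covered in any list and lay 35 bases from the nearest site, inside the empty stretch. The other 7 positions looked up, which are methylated pyrimidines, 2′-O-methylated nucleotides and a pseudouridine, were not covered, and the nearest sites were 2 to 7 bases away.

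Outside rRNA, 11 sites were called in every list. In tRNA genes they were chrM:1603 and chrM:1670 in MT-TV, the valine tRNA between the rRNAs, chrM:12265, the last base of the serine tRNA MT-TS2, and chrM:5826 on the minus strand, where the cysteine and tyrosine tRNAs MT-TC and MT-TY meet. In mRNA genes they were chrM:7828 in MT-CO2 and chrM:9476 in MT-CO3, which code for subunits of cytochrome c oxidase, chrM:9206-9207 at the junction of MT-ATP6 and MT-CO3, chrM:12699 in MT-ND5, a complex I subunit, and chrM:14765 in MT-CYB, cytochrome b. The remaining pair, chrM:310 on the minus strand and chrM:16269, lay in the noncoding control region. In a check chosen after these positions were seen, 5 of the 11 lay within 2 bases of a gene boundary (45.5%), against 5 of 332 sites in 1 list (1.51%) and 1.82% of all positions outside rRNA.

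A further 16 sites outside rRNA were in 3 lists. MT-CO2 held 4 of them, at chrM:7839, 8138, 8144 and 8146, and MT-CYB another 4, at chrM:14746-14747, 14786, 15258 and 15325. In MT-CO3 they were chrM:9538-9539 and 9567, and in MT-CO1 6485. The others were chrM:4044 in MT-ND1, 10305-10306 in MT-ND3, 5340 on the minus strand in MT-ND2, 5512 in the tryptophan tRNA MT-TW and 74 on the minus strand in the control region.

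Each of the 13 mRNA genes held at least 1 site. MT-CO2 had the most, 75 between chrM:7612 and chrM:8225, of which 32 were in the WT DMSO list, 11 in WT Tg, 12 in DD DMSO and 44 in DD Tg. It also had the highest density of the mRNA genes, 110 sites per kb. MT-ND4, a complex I subunit, followed in number with 53 sites (chrM:10826 to 12116), 8, 6, 11 and 33 in the same order of lists. MT-CYB had 50 (chrM:14746 to 15844), 15, 6, 12 and 31 by list. The other oxidase genes, MT-CO1 (chrM:6252 to 7371) and MT-CO3 (chrM:9206 to 9943), had 43 each, with 17, 5, 3 and 22 in MT-CO1 and 17, 8, 7 and 27 in MT-CO3. MT-ATP6, a subunit of ATP synthase, had 38 (chrM:8535 to 9207), with 11, 3, 10 and 23 by list. In 5 of these 6 genes DD Tg was the longest list and WT DMSO the next, and in MT-ND4 DD DMSO was the next.

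The remaining mRNA genes had fewer sites. Complex I genes had 17 in MT-ND1 (chrM:3378 to 4151), 17 in MT-ND3 (chrM:10058 to 10379), 9 in MT-ND2 (chrM:4953 to 5378), 9 in MT-ND5 (chrM:12336 to 14145) and 4 in MT-ND4L (chrM:10468 to 10721). MT-ATP8, which overlaps MT-ATP6, had 7 (chrM:8479 to 8554). The lowest density was in MT-ND5, at 4.97 sites per kb, although it is the longest of the mRNA genes. MT-ND6 is encoded on the other strand from the rest of the mRNAs, and 13 of the 14 sites in its span (chrM:14270 to 14674) lay on the strand opposite to the gene. Over the whole of chrM 920 sites were on the plus strand and 8 on the minus strand, where nuclear sites were 49.2% plus.

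**Figure D4:**
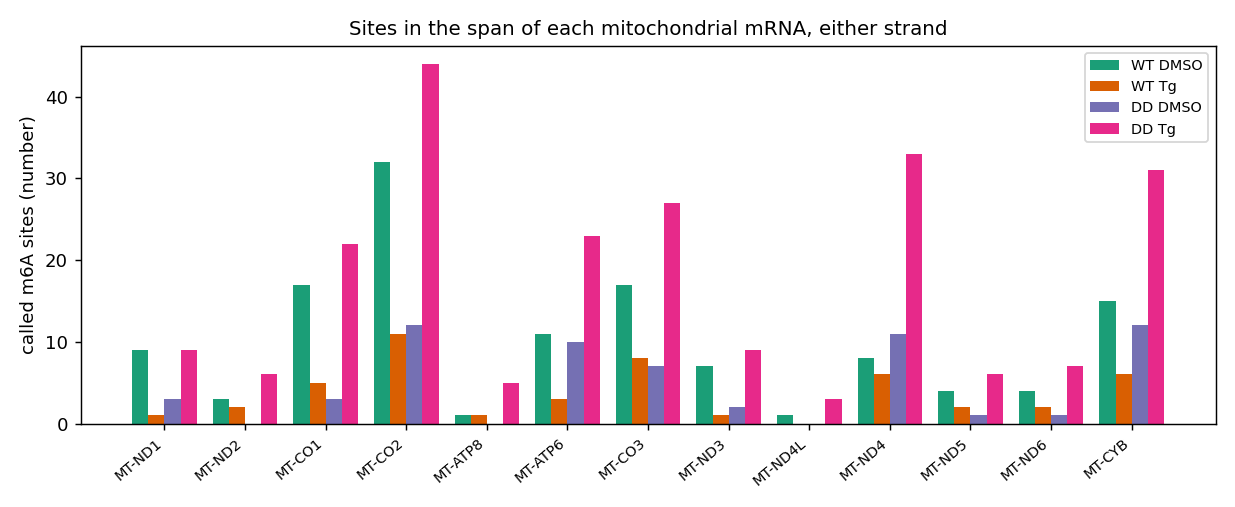
Bars give the number of called sites in the span of each mitochondrial mRNA gene (y axis), 1 bar per list. MT-CO2 is highest in the WT DMSO (32) and DD Tg (44) lists, and every gene has few sites in WT Tg, at most 11.

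Within the mRNA genes sites were uneven. Only sites on the strand of the gene were counted in windows of 100 bases, which leaves out the 13 opposite-strand sites of MT-ND6. Of 120 windows, 37 held no such site, the median was 1.5 and 12 held at least 10. The fullest, with 19 sites, was chrM:8086-8185 in MT-CO2, with 11 sites in WT DMSO, 2 in WT Tg, 4 in DD DMSO and 11 in DD Tg. Another, chrM:11960-12059 near the end of MT-ND4, held 16, of which 11 were in DD Tg and 2 or 3 in each other list. Of 358 sites on the strand of their mRNA gene, cutting each gene into 3 equal parts put 90 in the 5′ part (25.1%), 114 in the middle part (31.8%) and 154 in the 3′ part (43.0%, Wilson interval 38.0 to 48.2). The lists differed: the 3′ part held most sites in WT DMSO (58 of 121, 47.9%) and DD Tg (87 of 214, 40.7%), DD DMSO was nearly even between the middle (37.3%) and 3′ parts (39.0%), and in WT Tg the middle part held more (19 of 41, 46.3%) than the 3′ part (13 of 41, 31.7%). In MT-CYB 32 of 50 were in the 3′ part, and in MT-CO1 24 of 43 were in the middle part, so genes differed. Of 294 sites of 1 base in 1 reading frame, 109 fell on the first codon position, 72 on the second (24.5%, 19.9 to 29.7) and 113 on the third. Base composition differs between codon positions and was not set against these counts.

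Sites on either strand were found in the spans of 12 of the 22 tRNA genes. The only site of MT-TP and 1 of the 2 of MT-TE lay on the strand opposite to the gene. The phenylalanine tRNA MT-TF, which lies just before 12S rRNA, had 9, between chrM:590 and chrM:649, of which none was in all lists and 7 were in 1 list. MT-TV had 4 and MT-TY 3. MT-TL2 and MT-TE had 2 each, and MT-TC, MT-TG, MT-TH, MT-TP, MT-TR, MT-TS2 and MT-TW had 1 each, where a site over a junction counts for both genes.

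A copy of part of chrM lies on chromosome 1, annotated as a row of mitochondrial pseudogenes, and could receive the same reads. It held 5 listed sites. The site chr1:630717 was in all lists and matches chrM:5547 in MT-TW, 35 bases from the nearest chrM site. The site chr1:632690 was in 3 lists and chr1:632692 in 2, and they match chrM:7519 and chrM:7521 in MT-TD, the aspartate tRNA, which has no chrM site. The sites chr1:634019 and chr1:634031, in 1 list each, match chrM:8850 and chrM:8862 in MT-ATP6. None of the 5 matching chrM positions was itself listed, and how reads that fit both places were assigned is not given in the sources used here.

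RNA levels of the same genes were taken from RNA-Seq as RPKM, read counts scaled by gene length and by the reads of each library. MT-RNR1 measured 72695 and 95574 RPKM in the WT DMSO libraries, and 90711 and 50246 in the WT Tg ones. In DD cells it measured 81390 and 82420 with DMSO, and 52197 and 179321 with Tg. MT-RNR2 measured 236252 and 159990, 264169 and 160747, 221149 and 112551, and 173768 and 257696 in the same order. The libraries of the conditions overlapped for both rRNAs, in every contrast. Limma called 0 of 9637 genes (0%) at a Benjamini-Hochberg adjusted p below 0.05 in each of the 4 contrasts, with 24, 25, 68 and 82 genes at an unadjusted p under 0.05 for Tg in WT, Tg in DD, DD against WT in DMSO and DD against WT in Tg. The log2 differences of MT-RNR1 were −0.30, 0.24, −0.03 and 0.52 in that order (SE 0.60), and those of MT-RNR2 0.08, 0.42, −0.30 and 0.04 (SE 0.48), all on the log2(RPKM + 1) scale with a limma adjusted p = 1. No direction can be read from them: leaving out 1 library in turn moved the MT-RNR1 differences to between −0.73 and 0.12, −0.65 and 1.13, −0.22 and 0.17, and −0.37 and 1.41. Without DD Tg replicate 2 both differences of MT-RNR1 that involve DD Tg were negative (−0.65 and −0.37). Those of MT-RNR2 ran from −0.27 to 0.44, −0.06 to 0.91, −0.79 to 0.19 and −0.32 to 0.40. The counts of genes at an unadjusted p under 0.05 were below the share that this threshold passes when no gene changes. A limma count of 0 in RNA-Seq is therefore no evidence that levels were unchanged.

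The mRNA with most sites, MT-CO2, measured 2305 and 3333 RPKM in WT cells with DMSO and 3800 and 6181 with Tg. In DD cells it measured 4247 and 4608 with DMSO, and 5521 and 2773 with Tg. The WT Tg libraries were above the WT DMSO ones, while the WT Tg list held fewer MT-CO2 sites (11) than the WT DMSO list (32). MT-ND4 measured 511 and 596, 976 and 1118, 1229 and 1187, and 1075 and 1679 RPKM, so that WT DMSO was the lowest condition. Of the 13 mRNAs limma called 0 in each contrast, and their median log2 differences were 0.67, 0.07, 0.76 and 0.36 in the order of contrasts above, beside 0.12, 0.02, 0.13 and 0.05 over all genes. With RPKM rescaled to reads outside the mitochondrial genome the medians were 0.72, 0.37, 0.67 and 0.51. For Tg in DD cells the median depended on the scaling, at 0.37 when rescaled and −0.0035 with libraries centred on their median. The 13 mRNAs together took 1.10 and 1.10% of the reads with DMSO and 1.55 and 1.97% with Tg in WT cells, beside 128 and 46 mRNA sites. In DD cells they took 1.79 and 1.65% with DMSO and 2.31 and 1.46% with Tg, beside 61 and 223 mRNA sites. WT DMSO, with the lowest share of reads, thus had the second longest list. Fewer mitochondria and less RNA per mitochondrion cannot be told apart in these libraries.

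Across genes, site density went with RNA level. Over the 12 mRNA genes other than MT-ND6, sites per kb in any list and the mean RPKM of the 8 RNA-Seq libraries had a Spearman rho of 0.713 (Pearson r 0.479 with the log2 level). Within the lists rho was 0.867 in WT DMSO, 0.608 in WT Tg, 0.803 in DD DMSO and 0.706 in DD Tg. The points share the same libraries and the same polycistronic transcript, so these are descriptions. MT-CO2 had the highest mean level (4096 RPKM) and the highest density, and MT-ND5 a low level (281 RPKM) and the lowest density. MT-ATP8, which shares bases with MT-ATP6, stood apart with 15.2 RPKM and 33.8 sites per kb. The depth of the m6A-eCLIP libraries was not analysed here.

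**Figure D5:**
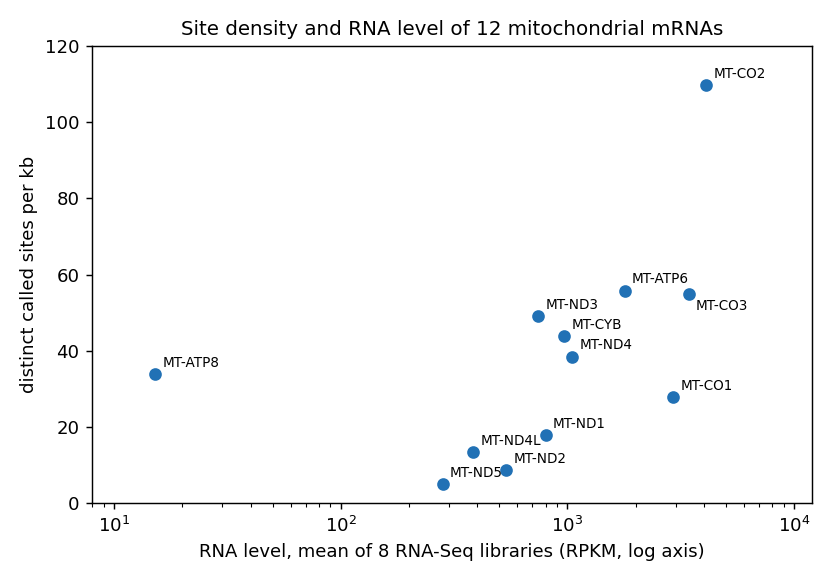
Each point is 1 mitochondrial mRNA gene, with its mean RPKM over 8 RNA-Seq libraries (x axis, log scale) and its distinct called sites per kb (y axis). MT-CO2 lies highest at 110 per kb, and MT-ATP8 lies far to the left at 15.2 RPKM.

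In Subunit-Seq both rRNAs were lower in the IP than in the input. MT-RNR1 measured 29129 and 51336 RPKM in the DMSO inputs and 1673 and 3886 in the IPs, and 136737 and 31243 in the Tg inputs against 1602 and 1341 in the IPs. MT-RNR2 measured 11964 and 99659 against 1528 and 2143 in DMSO, and 44262 and 41258 against 1646 and 1013 in Tg. Every IP library was below every input library, and the inputs varied more than the IPs. The log2 difference (limma with the replicate number as a block) was −3.92 (SE 0.25, Benjamini-Hochberg adjusted p = 2.67e-53) in DMSO and −5.48 (6.09e-105) in Tg for MT-RNR1. For MT-RNR2 it was −4.25 (SE 0.26, limma adjusted p = 3.51e-55) and −5.05 (9.68e-79). The medians of all genes were 0.96 and 0.87, and 172 of 9813 genes (1.75%) were called lower in DMSO and 159 (1.62%) in Tg. Limma pooled the spread over all genes here. Without the filter on low values its adjusted p was 0.235 in DMSO and 0.220 in Tg for both rRNAs. Without the block it was between 0.000415 and 0.0106, and without input DMSO replicate 2 the DMSO differences were −3.32 and −2.67 with limma's adjusted p = 0.337.

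The mRNAs had smaller differences. Their median log2 difference was −0.26 in DMSO and −0.34 in Tg, and 1 library turned its sign in each, to 0.28 without input DMSO replicate 2 and to 0.54 without IP Tg replicate 2. With libraries centred on their median it was −1.45 and −1.41. In DMSO limma called 5 of 13. MT-CO3 (−1.38), MT-ND3 (−1.19) and MT-CO2 (−1.04) were lower, and MT-ND5 (1.53) and MT-ATP8 (2.05) higher. Over all genes 2272 of 9813 (23.2%) were called in either direction, 21.4% higher and 1.75% lower. MT-ATP8 lay near the floor, at 2.97 and 0 RPKM in the DMSO inputs against 2.68 and 17.6 in the IPs. Its rise was thus in replicate 2 only, and in Tg its difference was −0.34. With RPKM rescaled to reads outside the mitochondrial genome, MT-CO3 alone of the 13 was called in DMSO. In Tg limma called MT-CO3 (−1.26) and MT-CO2 (−1.16) lower, where 1591 genes (16.2%) were called in either direction and 1.62% lower. None of these mRNA calls was made without the filter on low values, without the replicate block or with libraries centred on their median, nor, in DMSO, without input DMSO replicate 2. Both calls in Tg were also lost with a pseudocount of 0.1, with rescaled RPKM, and without any 1 of the 4 input libraries or IP Tg replicate 2. With 1 library left out, limma called 0 to 6 of the 13 in either condition. The protocol removes contaminating RNA with an enzyme in the IP, and its part in these differences was not tested.

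Nuclear genes that act on mitochondrial RNA were followed from lists chosen with earlier results known. Of 25 named enzymes that modify mitochondrial rRNA or tRNA, 19 could be tested in RNA-Seq, and limma called 0 in each of the 4 contrasts, the same share as over all genes (0%). TFB1M, which makes the dimethylated adenines described above, averaged 3.60 ± 1.54 RPKM with DMSO and 3.88 ± 2.10 with Tg in WT cells, and 4.59 ± 1.93 with DMSO and 5.06 ± 0.571 with Tg in DD cells (SD, n = 2), with overlapping libraries. The most abundant of the list, HSD17B10, a subunit of mitochondrial RNase P, averaged 92.6 ± 33.6, 107.9 ± 92.1, 146 ± 122 and 82.2 ± 45.1 RPKM. Of 20 gene names of mitochondrial transcription, processing and decay, 19 were tested, and of 14 names of nuclear m6A writers and erasers 10, again with 0 called. The former list holds TBRG4 also as FASTKD4 and the latter VIRMA also as KIAA1429, so these counts are of names and not of distinct genes. SLIRP, an RNA-binding protein that stabilises mitochondrial mRNAs, led the former with 35.0 ± 18.2, 35.0 ± 14.1, 47.1 ± 21.5 and 44.3 ± 16.2 RPKM. METTL5, which methylates the rRNA of the small cytosolic subunit, led the latter with 20.4 ± 13.5, 22.4 ± 6.42, 28.3 ± 5.64 and 31.7 ± 15.4 RPKM, before the writer-complex member WTAP with 5.59 ± 2.68, 7.82 ± 2.28, 6.29 ± 0.233 and 8.04 ± 0.493.

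In Subunit-Seq the same lists had 21, 18 and 10 genes tested. Among the modifying enzymes limma called NSUN2 (1.99) and TRMT2B (1.79) higher in the DMSO IP, and ALKBH7 lower in the Tg IP (−1.84). Among the genes of transcription, processing and decay it called 5 higher in DMSO, led by FASTKD5 (2.64), PNPT1 (2.03), LRPPRC (1.98) and FASTKD1 (1.68), and FASTKD5 alone in Tg (1.81). Among the m6A writers and erasers the demethylase ALKBH5 (2.84 and 2.63), the writer-complex members ZC3H13 (2.48 and 2.17) and RBM15B (2.31 and 2.61), and the methyltransferase METTL16 (1.77 and 1.73) were higher in DMSO and in Tg. In DMSO 2 of 21 (9.52%), 5 of 18 (27.8%) and 4 of 10 were called higher, where 21.4% of all genes were. In Tg 0 of 21, 1 of 18 (5.56%) and 4 of 10 were, where 14.6% of all genes were. The shares of the lists were not tested, and 0 members of the 3 lists were called higher without the filter on low values or without the block. With libraries centred on their median, 492 genes were still called in DMSO and 372 in Tg. Under that setting 0 m6A writers and erasers and 0 modifying enzymes were called higher in either condition. Of the genes of transcription, processing and decay, 1 was called higher in DMSO and 0 in Tg. In each condition 1 modifying enzyme was called lower.

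Library depth, recovered from the RPKM values, was 4508483 to 10163214 reads in RNA-Seq, 5102852 to 14606555 in Subunit-Seq inputs and 10808590 to 16860637 in IPs. The mitochondrial rRNAs took 25.4 to 57.3% of RNA-Seq reads, although the RNA was selected for poly(A), and 0.286 to 0.705% of IP reads. Of the 22 tRNA genes, 20 were listed at 0 in all 8 RNA-Seq libraries, so site counts in tRNA genes could not be set against a level. The cell type was checked in RNA-Seq against markers expected in HEK293T cells. VIM was at 15.2 to 45.7 RPKM, KRT18 at 6.84 to 36.1, NEFL at 2.61 to 58.4 and LIN28B at 0.924 to 5.56. NEFM varied widely between libraries, from 0.0693 to 62.2 RPKM. The kidney lineage marker PAX2 was also expected but was nearly absent, at 0 to 0.194 RPKM. Among markers expected to be absent, PTPRC (blood) was listed at 0 in all 8 libraries. The highest value among them was 0.703 RPKM, for MYH7 (muscle).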

How the data were processed

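The deposited m6A site lists are positions made by the authors, 1 list per condition. The build is GRCh38 and the tools named are BWA, STAR, cutadapt and DESeq2, per the submitters' processing notes, which give no version or role. The site caller, its thresholds and the treatment of replicates and of reads that fit several places are not given in the sources used here. Starts were read as 0-based and printed as 1-based, and repeated lines were counted once. Gene spans come from the RefSeq gene table of GRCh38.p14. Known rRNA modification positions come from general knowledge. Shares carry 95% Wilson intervals.

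Levels in RNA-Seq and in Subunit-Seq are RPKM as deposited by the authors. They were tested with limma 3.58.1 (R 4.3.3) on log2(RPKM + 1), with trend, over genes with a mean of at least 1 RPKM (over inputs in Subunit-Seq). P-values were adjusted by Benjamini-Hochberg at 0.05 over all genes tested. Subunit-Seq had the replicate number as a block, since each replicate is a separate deposited table. RNA-Seq had none. The fit was tested on simulated data. Read totals were recovered from the whole-read steps of RPKM in mitochondrial genes of known length (tolerance 0.02 reads).

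Members and gene lists were chosen with earlier results of these data known. Sites outside rRNA in 3 or 4 lists are named, and the many rRNA sites are given by window and count. Other genes were named if called (up to 4 per list with the largest change), otherwise from the most expressed, with TFB1M added for its target.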

Additional observations from a re-analysis of the deposited data

How the results depend on the processing

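Of 347 values recomputed under alternatives, 6 lost the threshold, 45 moved by more than their spread (counts of genes by over 1.5 times), and no called value changed sign. Values that were not called did: 15 of 234 alternative log2 values had the other sign, 13 in RNA-Seq and 2 among the Subunit-Seq medians of mitochondrial mRNAs. Ignoring strand and keeping repeated lines left the site counts within their error. Merging sites within 5 bases left 216, 146, 160 and 283 chrM sites (WT with DMSO, WT with Tg, DD with DMSO, DD with Tg), put 27.7% of merged sites in all lists instead of 40.2%, and put 24.6% in rRNA instead of 56.7%, since dense rRNA sites merge into few. Merging only sites that share a base gave 48.5% in all lists. With 1 list left out, the share present in all the others was 46.1% without WT DMSO, 48.2% without WT Tg, 45.6% without DD DMSO and 51.2% without DD Tg. The rRNA share was 62.6% without WT DMSO and 70.1% without DD Tg, and in single lists 76.3% and 88.8% for WT cells with DMSO and Tg, and 86.2% and 65.1% for DD cells. These mergers by shared base and left-out lists were chosen after seeing the data.

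For RNA-Seq, no alternative called a gene, which says nothing about the stability of its differences. Limma with a replicate block called 0 genes in each contrast (67, 77, 227 and 254 at an unadjusted p under 0.05), and same-numbered libraries had deviations with correlations of 0.134 to 0.864, with 2 libraries per condition. In Subunit-Seq, which was fitted with the block, these correlations were 0.002 to 0.51. Between input and IP they were 0.002 in DMSO and 0.21 in Tg. Subunit-Seq counts of called genes depended on the setting. In DMSO and Tg they were 1332 and 447 with a pseudocount of 0.1, 492 and 372 with libraries centred on their median, 1400 and 735 with RPKM rescaled to reads outside the mitochondrial genome, and 24 and 36 without the replicate block. Without the filter on low values limma called 0 and 0 (5606 and 5563 at an unadjusted p under 0.05). Leaving out each library in turn gave 0 to 5073 and 114 to 2905. The 0 came without input DMSO replicate 2 (1300 at an unadjusted p under 0.05). The cause of these changes was not tested. Both rRNAs stayed lower in the IP in every setting run, with log2 differences of −5.83 to −2.67 in DMSO and −6.84 to −4.12 in Tg when 1 library was left out.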
